A study of Mus musculus with 6 samples.

Results

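The core spliceosome proteins described here are the genes whose symbol starts with Snrp, Lsm and a number, Sf3a, Sf3b, Prpf or U2af. They were 50 of the 23557 genes of the table, chosen by symbol, with earlier results of these data known. Of these, 21 formed an Sm/LSm class and 22 an SF3/PRPF class, and the other 7 were 4 proteins particular to the U1 or U2 particle and 3 U2AF genes. RNA was measured by bulk sequencing of 6 subcutaneous tumors of CT26, a mouse colon carcinoma cell line, grown from 500000 cells in female BALB/c mice and taken on day 14. The 3 H89 tumors came from mice given H89, an inhibitor of protein kinase A and of other kinases, at 10 mg/kg in NaCl by intraperitoneal injection, and the 3 NaCl tumors came from mice given NaCl alone. Each tumor holds the injected cell line, which is a single line in 1 mouse strain, together with host cells. There were 3 mice per group. The p-values set the difference between groups against the spread between these tumors, estimated with information shared across genes.

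The spliceosome removes introns from messenger RNA precursors. Its U1, U2, U4 and U5 particles each carry a small nuclear RNA inside a ring of Sm proteins, and U6 carries a ring of LSm proteins instead. Around these small ring proteins sit much larger ones. The SF3A and SF3B complexes belong to U2 and hold the branch point of the intron, the U2AF proteins recognise its 3′ end, and the PRPF proteins build and rearrange the U4, U5 and U6 particles and the active site.

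Totals ran from 27067349 to 31958793 estimated counts per tumor. Values are given in CPM, the counts per 1000000 counts of a tumor scaled by a TMM factor, and fold changes are log2 values of H89 against NaCl with the standard error (SE) of the edgeR fit. Of the 50 members, 49 passed the filter of a mean of 0.5 CPM, as did 13118 genes in all. The summed level of fibroblast markers was 2477 to 2708 CPM in NaCl tumors and 2780 to 3565 CPM in H89 tumors, with all 7 markers at positive fold changes and the groups apart. T cell markers summed to 11.6 to 24.3 CPM against 22.7 to 58.6 CPM, with 7 of 7 at positive fold changes and the groups overlapping. Summed macrophage, endothelial and proliferation markers overlapped between the groups. Keratinocyte markers summed to 45.9 to 73.1 CPM against 13.9 to 17.9 CPM, nearly all of it Cdsn (54.6 ± 13.6 against 12.4 ± 1.98 CPM, SD, n = 3), while Krt10 had 2.64 and 3.28 CPM and Krt1 was at 0 in every tumor. Skeletal muscle markers were high in 1 tumor, H89 tumor 1, at 19.2 CPM against at most 2.59 CPM in the others. Of 7 epithelial markers chosen for the CT26 cells, 3 were under the filter (Epcam, Cldn4 and Cldn7), and the list summed to 14.7 to 26.3 CPM with NaCl and 11.2 to 16.4 CPM with H89. Krt18, most of that sum, had 16.7 ± 5.91 CPM against 8.11 ± 0.311 CPM (SD, n = 3; log2 fold change -1.04, edgeR adjusted p 0.0653), with the groups apart, while the other 3 tested had positive fold changes. The part of these cell types in the results below was not tested, and in bulk tumors fewer cells of a type and less RNA per cell cannot be told apart.

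Only 2 of the 49 members passed the test across all genes, and both rose with H89. They were Prpf39, a protein that works with the U1 particle at the 5′ splice site, and Sf3b1, the largest SF3B subunit, which contacts the branch point. A Benjamini-Hochberg adjusted p under 0.05 in edgeR's quasi-likelihood test was reached by 0.861% of all genes in the higher direction (2 members, 4.08%) and by 0.724% in the lower direction (0 members, with 9 at an unadjusted p under 0.05 and 4 by the adjusted p of DESeq2, which called 4.02% of the genes it tested lower and 3.37% higher). Under a Bonferroni adjustment over all genes, 0 members passed in edgeR and 1 in DESeq2 (Prpf39, at 0.0154).

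Prpf39 had 43.2, 48.6 and 47.2 CPM in the NaCl tumors and 65.5, 69.7 and 66.4 CPM in the H89 tumors. Every H89 tumor lay above every NaCl tumor, and the gap between the groups was wider than the range within either. Its log2 fold change was 0.54 (SE 0.081), with an edgeR adjusted p of 0.0407. Sf3b1 had 191, 187 and 204 CPM with NaCl and 250.3, 267 and 288 CPM with H89. These groups were apart as well. Its log2 fold change was 0.47 (SE 0.088), with an edgeR adjusted p of 0.0488. Both calls rested on the full set of tumors: without any 1 of the 6, neither passed, with edgeR adjusted p-values from 0.0667 to 0.142 for Prpf39 and from 0.0667 to 0.150 for Sf3b1. The same held for nearly all genes: these fits called 0 to 12 genes in all, against 208 of 13118 with all 6 tumors. The fold changes of Prpf39 and Sf3b1 moved little, from 0.49 to 0.57 and from 0.41 to 0.52.

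Exons of Prpf39 overlap on the opposite strand those of Fkbp3, a peptidyl-prolyl isomerase gene, and whether counting used strand is not given in the sources used here. Fkbp3 had a log2 fold change of -0.26 (SE 0.099). In the GENCODE annotation, 6 of the 10 transcripts of Prpf39 and 5 of the 8 of Sf3b1 are marked as retaining an intron. Among members that did not rise the share varied, with 6 of 8 in Sf3b2, 4 of 5 in Sf3b3 and 0 of 3 in Sf3a3. Values per gene cannot tell such transcripts from the coding ones.

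At an unadjusted p under 0.05, 4 members were higher (8.16% of the members, against 13.1% of all genes) and 9 were lower (18.4%, against 11.9% of all genes). The 4 higher members all belonged to the SF3/PRPF class, while the 9 lower ones were 6 Sm/LSm and 3 SF3/PRPF genes. The CPM of the groups did not overlap for 4 members in the higher direction (8.16%, against 15.2% of all genes) and for 8 in the lower direction (16.3%, against 15.5%). The share of higher members was thus below that over all genes, and the share of lower members near or somewhat above it. With library totals alone as the scale, without TMM, 5 members were higher, against 17.5% of all genes. In that fit 5 members (10.2%) were lower, against 6.9% of all genes.

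**Figure D1:**
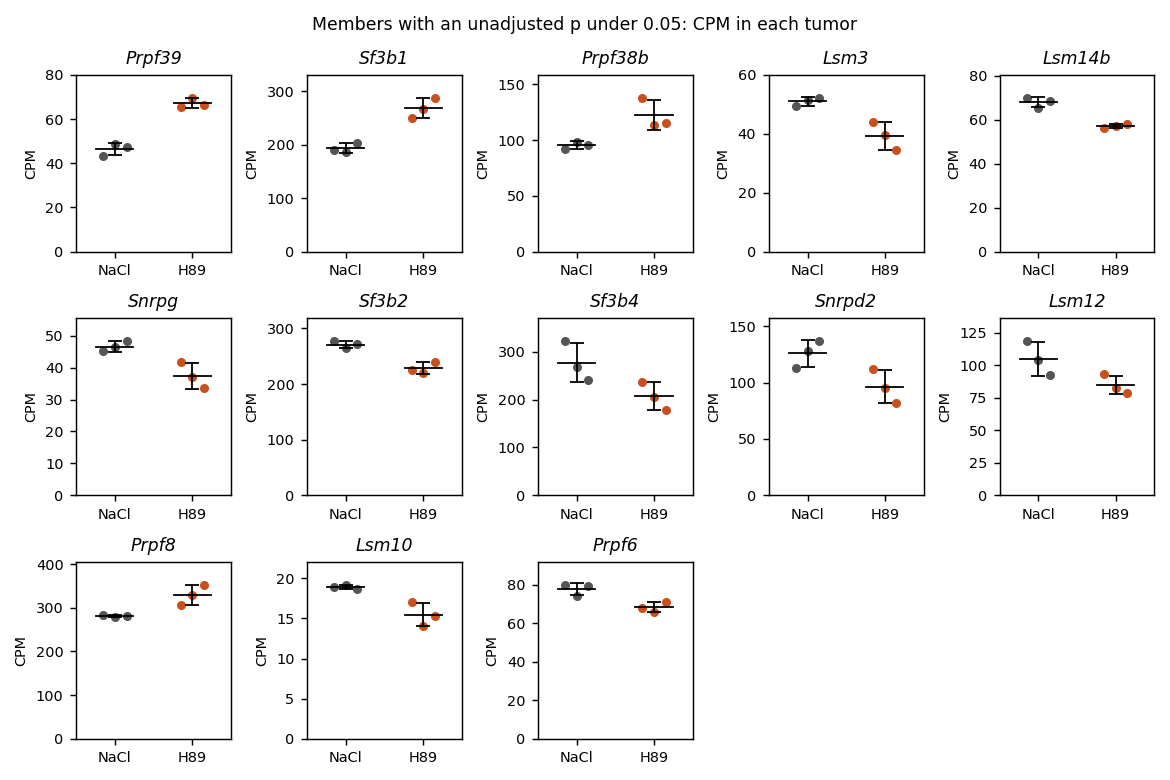
CPM (y axis, from 0) in each NaCl and H89 tumor for the 13 members with an unadjusted edgeR p under 0.05, in order of p. Points are tumors 1 to 3 from left to right, long lines group means and bars SD (n = 3). The groups are apart for 12 of the 13, Lsm12 being the exception, and Prpf39 shows the widest gap beside its spread.

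The promoters of the 2 genes that rose and of 2 Sm ring genes whose groups were apart, Snrpg and Snrpd2, are shown because H89 acts on protein kinase A, and the factor CREB, which that kinase phosphorylates, binds the cAMP response element. Each sequence is the 250 bases before the RefSeq start on GRCm38.p6, 5′ to 3′ on the strand of the gene, with matches in capitals to the cAMP response element TGACGTCA, the ETS motif CCGGAAG or the E-box CACGTG, searched on both strands.
Prpf39, chr12:65036084-65036333, plus strand: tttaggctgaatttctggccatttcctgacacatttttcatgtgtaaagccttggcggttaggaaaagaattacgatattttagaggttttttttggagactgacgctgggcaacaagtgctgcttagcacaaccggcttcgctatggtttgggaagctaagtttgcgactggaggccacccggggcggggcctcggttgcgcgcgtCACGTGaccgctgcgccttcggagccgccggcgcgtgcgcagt
Sf3b1, chr1:55027479-55027728, minus strand: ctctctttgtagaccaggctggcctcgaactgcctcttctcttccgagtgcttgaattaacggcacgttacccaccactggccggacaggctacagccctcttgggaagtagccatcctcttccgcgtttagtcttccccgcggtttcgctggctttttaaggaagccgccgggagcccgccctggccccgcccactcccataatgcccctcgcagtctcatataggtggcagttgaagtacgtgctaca
Snrpg, chr6:86371290-86371539, plus strand: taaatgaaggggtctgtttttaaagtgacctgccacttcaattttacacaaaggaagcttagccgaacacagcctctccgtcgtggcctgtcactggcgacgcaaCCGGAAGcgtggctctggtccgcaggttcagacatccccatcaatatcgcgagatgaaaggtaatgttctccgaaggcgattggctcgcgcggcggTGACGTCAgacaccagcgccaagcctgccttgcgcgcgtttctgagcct
Snrpd2, chr7:19149588-19149837, plus strand: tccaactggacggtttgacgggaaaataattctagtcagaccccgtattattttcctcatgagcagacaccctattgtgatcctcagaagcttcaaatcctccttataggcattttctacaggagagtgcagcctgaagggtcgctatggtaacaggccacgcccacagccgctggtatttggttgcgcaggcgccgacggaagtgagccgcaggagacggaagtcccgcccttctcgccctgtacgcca
Prpf39 held an E-box, Snrpg an ETS motif and a cAMP response element, and Sf3b1 and Snrpd2 none of the 3 letter strings. A promoter entry was found for 40 of the 50 members. The ETS letters stood in 13 of these 40 (32.5%) against 15.3% of the 10375 tested genes with an entry. The cAMP response element stood in 3 (7.5%, namely Lsm2, Snrpa and Snrpg) against 2.93%, and the E-box in 4 (10.0%) against 9.59%. These are matches of letters, not binding sites.

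The Sm ring, which every U1, U2, U4 and U5 particle carries, had negative log2 fold changes in all of its 7 tested genes, with 1 (Snrpd1) turning positive without TMM and 3 (Snrpd1, Snrpe and Snrpf) after the correction for transcript length, and 2 (Snrpd1 and Snrpf) without H89 tumor 3. Their log2 fold changes ran from -0.38 to -0.05, with a median of -0.10, and none passed the adjusted test. The median was -0.03 without TMM, -0.05 without H89 tumor 3, -0.16 without NaCl tumor 1 and -0.23 without H89 tumor 1. Snrpd2 had 112, 128 and 137 CPM with NaCl and 112, 95.0 and 82.2 CPM with H89. Its groups were apart only by the narrow step between H89 tumor 1 (112.11 CPM) and NaCl tumor 1 (112.49 CPM). The log2 fold change was -0.38 (SE 0.13, edgeR adjusted p 0.127). Snrpg had 45.1, 46.4 and 48.3 CPM with NaCl and 41.6, 37.1 and 33.6 CPM with H89. All 3 H89 tumors lay below all NaCl tumors, with a log2 fold change of -0.32 (SE 0.099, edgeR adjusted p 0.111).

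Snrpb, which codes for the SmB protein, had 368, 353 and 324 CPM with NaCl and 339, 289 and 262 CPM with H89. H89 tumor 1 lay within the NaCl range and the other two below it, and the log2 fold change was -0.23 (SE 0.11). Snrpd1 had 72.3, 76.3 and 80.4 CPM against 82.1, 73.1 and 66.2 CPM. Snrpd3 had 51.9, 58.7 and 57.6 CPM against 59.6, 49.1 and 48.3 CPM. In both genes H89 tumor 1 was the highest of all 6 tumors while H89 tumor 3 was the lowest. The same order held for Snrpf, with 60.8, 71.5 and 69.2 CPM against 74.9, 62.3 and 52.2 CPM. Snrpe had 71.3, 79.8 and 83.8 CPM against 79.3, 72.9 and 67.8 CPM, with overlapping groups. Snrpn, the SmN gene known for its expression in brain, had 0.48, 0.39 and 0.57 CPM against 0.52, 0.31 and 0.36 CPM, below the filter, and was not tested.

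In the ring of LSm2 to LSm8, which binds the end of U6 RNA, 5 of the 7 genes had negative and 2 positive log2 fold changes, with a median of -0.10. It was -0.04 without TMM, -0.02 after the length correction, -0.05 without NaCl tumor 2 and -0.04 without H89 tumor 3, each with 3 positive and 4 negative. Lsm3 had 49.4, 51.5 and 52.3 CPM with NaCl and 44.0, 39.7 and 34.5 CPM with H89, a log2 fold change of -0.37 (SE 0.10, edgeR adjusted p 0.0903) with the groups apart. Lsm4 had 94.0, 100.4 and 92.0 CPM against 97.4, 77.7 and 68.0 CPM, and a log2 fold change of -0.24 (SE 0.13). Of the H89 tumors of Lsm4, only tumors 2 and 3 lay below the NaCl range. Lsm5 had 12.5, 14.9 and 16.2 CPM against 13.9, 11.7 and 12.7 CPM. Lsm6 had 40.8, 45.1 and 40.8 CPM against 41.1, 41.1 and 35.7 CPM. Groups of both overlapped, as did those of the next 3 genes.

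Lsm7 and Lsm8 had positive log2 fold changes, 0.16 (SE 0.13) and 0.11 (SE 0.15). Lsm7 had 18.0, 22.4 and 18.0 CPM against 23.9, 21.6 and 19.7 CPM. Lsm8 had 31.2, 32.5 and 42.9 CPM against 41.4, 40.7 and 33.1 CPM. The spread between tumors was larger than these differences. Lsm2 had 62.0, 70.1 and 50.8 CPM against 65.1, 65.1 and 50.7 CPM, and its log2 fold change was -0.02.

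The other 6 LSm genes lie outside the LSm2 to LSm8 ring of U6. Of the 6 Sm/LSm genes lower at an unadjusted edgeR p under 0.05, 3 were among them. Lsm14b codes for a protein of cytoplasmic messenger RNA particles and had 70.1, 65.3 and 68.7 CPM with NaCl and 56.4, 57.3 and 57.9 CPM with H89. The H89 tumors were tightly grouped below the NaCl tumors, with a log2 fold change of -0.25 (SE 0.072, edgeR adjusted p 0.0995). Lsm10, a part of the U7 particle that processes histone messenger RNA, had 19.0, 19.2 and 18.7 CPM against 17.0, 14.1 and 15.4 CPM. Its groups were apart too, with a log2 fold change of -0.29 (SE 0.11, edgeR adjusted p 0.163). Lsm12 had 119, 104 and 92.6 CPM against 93.0, 82.7 and 79.0 CPM, overlapping between NaCl tumor 3 and H89 tumor 1 (log2 fold change -0.31, SE 0.11, edgeR adjusted p 0.150). Lsm11, the partner of Lsm10 in the U7 ring, Lsm14a and Lsm1 had log2 fold changes of -0.07, -0.06 and 0.01.

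Among the proteins particular to 1 particle, none of 4 was past an unadjusted p of 0.05, and all 4 log2 fold changes were negative, of which 2 turned positive without TMM. Snrpa (the U1 A protein) had 154, 157 and 138 CPM with NaCl and 144, 125 and 109.7 CPM with H89, a log2 fold change of -0.25 (SE 0.11). Snrpc (U1 C), which helps U1 to hold the 5′ splice site, had 95.1, 91.0 and 79.1 CPM against 87.7, 79.5 and 63.8 CPM. In both genes H89 tumor 1 lay within the NaCl range and H89 tumor 3 was the lowest of all 6. Snrpa1 (U2 A′) had 48.3, 56.7 and 50.3 CPM against 46.9, 52.1 and 49.7 CPM. Snrpb2 (U2 B″) had 61.7, 64.0 and 66.6 CPM against 67.7, 57.9 and 64.1 CPM. Their groups overlapped, at log2 fold changes of -0.06 (SE 0.092) and -0.02 (SE 0.086).

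The U2AF genes, whose products read the polypyrimidine tract and the AG at the end of the intron, also overlapped between groups. U2af2, the large subunit, had 273, 269 and 253 CPM with NaCl and 283, 262 and 248 CPM with H89, a log2 fold change of -0.003 (SE 0.086). U2af1, the small subunit, had 100.7, 110.1 and 106 CPM against 107, 98.1 and 90.4 CPM, a log2 fold change of -0.10 (SE 0.088). U2af1l4 had 26.1, 24.9 and 25.7 CPM against 25.3, 22.4 and 20.2 CPM. Its exons overlap those of Psenen on the opposite strand, which had a log2 fold change of -0.35 (SE 0.14).

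Among the roles, SF3B had the widest range of log2 fold changes, from -0.42 for Sf3b4 to 0.47 for Sf3b1. Sf3b4, whose product touches the RNA upstream of the branch point, had 322, 268 and 242 CPM with NaCl and 237, 205 and 179 CPM with H89. Its groups were apart by the step between NaCl tumor 3 and H89 tumor 1 (log2 fold change -0.42, SE 0.14, edgeR adjusted p 0.125). Sf3b2, the partner of Sf3b4, had 277, 265 and 271 CPM against 226, 219 and 240.5 CPM, apart in every tumor (log2 fold change -0.25, SE 0.079, edgeR adjusted p 0.118). Sf3b3 had 270.1, 279.9 and 271 CPM against 267, 269.5 and 277 CPM, a log2 fold change of -0.01 (SE 0.074). Sf3b5, a small subunit, had 68.3, 67.9 and 63.7 CPM against 69.5, 55.2 and 51.0 CPM. Sf3b6, which sits at the branch point adenosine, had a log2 fold change of -0.01. Measured against the mean of the other 5 SF3B genes on the log2(CPM + 0.5) scale, Sf3b1 stood 0.30, 0.33 and 0.48 higher in the NaCl tumors and 0.81, 1.04 and 1.20 higher in the H89 tumors. That difference joins the rise of Sf3b1 with the negative log2 fold changes of the other 5. These were largest in Sf3b4, Sf3b2 and Sf3b5, at -0.42, -0.25 and -0.19.

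The SF3A complex, which joins SF3B to U2, had log2 fold changes within 0.04 of 0 in 2 of its 3 genes. Sf3a1 had 129, 129 and 125 CPM with NaCl and 122, 126 and 125 CPM with H89, with the smallest SE of all members (log2 fold change -0.04, SE 0.072). Sf3a3 had 58.9, 63.0 and 56.5 CPM against 64.1, 60.2 and 56.5 CPM. Sf3a2 had 170.5, 156 and 117 CPM against 136, 117 and 95.4 CPM. It was the member with the widest spread among NaCl tumors, at a coefficient of variation of 18.7%, and its log2 fold change of -0.35 had the largest SE, 0.17. The median coefficient of variation over the 49 members was 5.93% in NaCl and 8.63% in H89 tumors.

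The 13 PRPF genes were split, with 7 positive and 6 negative log2 fold changes and a median of 0.03. Beside Prpf39, Prpf38b, a relative of the B complex protein Prpf38a, had 92.0, 98.7 and 95.7 CPM with NaCl and 138, 114 and 115 CPM with H89. Its groups were apart, with H89 tumor 1 the highest (log2 fold change 0.36, SE 0.097, edgeR adjusted p 0.0875). Prpf8, the U5 protein at the heart of the active site, had 284, 278 and 281 CPM against 306, 329.7 and 353 CPM. All 3 H89 tumors lay above the close NaCl group (log2 fold change 0.23, SE 0.084, edgeR adjusted p 0.150). Prpf6, which bridges U5 with U4 and U6, went the other way, with 80.0, 74.2 and 79.5 CPM against 68.0, 65.7 and 71.2 CPM. Its groups were apart as well (log2 fold change -0.19, SE 0.076, edgeR adjusted p 0.177).

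Prpf19, the ubiquitin ligase of the complex named after it, had 139.8, 144 and 145 CPM with NaCl and 143, 129 and 118 CPM with H89. Prpf4b, a kinase, had 43.2, 51.0 and 51.8 CPM against 46.1, 54.8 and 61.1 CPM. Prpf40b, a relative of a yeast U1 protein, had 29.4, 25.0 and 23.0 CPM against 31.2, 29.6 and 28.3 CPM. These 3 overlapped between groups, at log2 fold changes of -0.14 (SE 0.091), 0.15 (SE 0.12) and 0.21 (SE 0.11). Prpf3, Prpf4, Prpf18, Prpf31 and Prpf38a had log2 fold changes from -0.07 to 0.10.

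**Figure D2:**
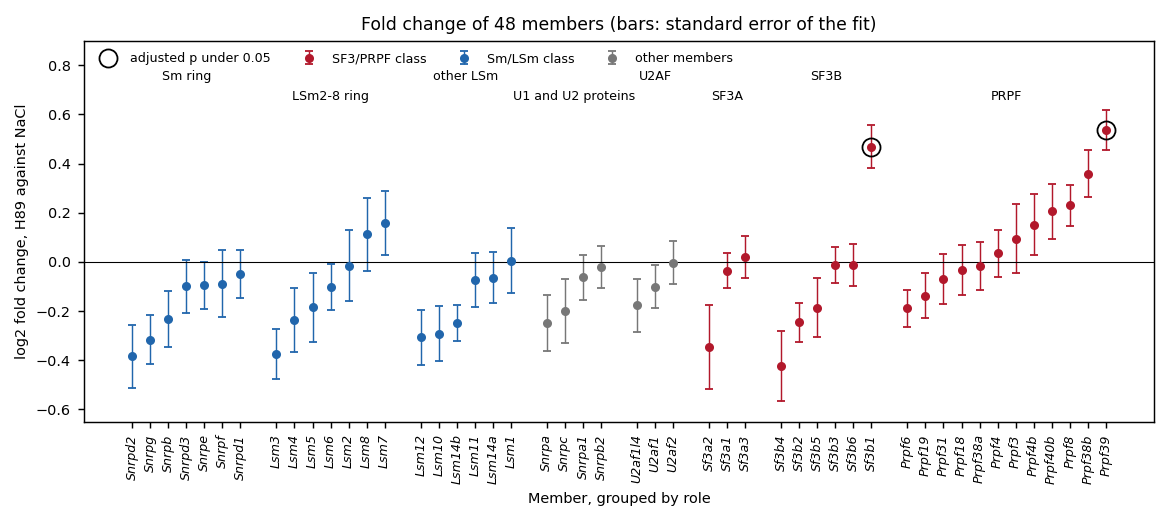
Log2 fold change of H89 against NaCl (y axis) for 48 of the 49 members tested, grouped by role on the x axis, with bars for the SE of the edgeR fit. All Sm ring genes lie below 0 (Snrpd1 above it without TMM), the PRPF genes on both sides, and the circles mark Sf3b1 and Prpf39, the only members with an adjusted p under 0.05.

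Per kilobase of transcript, the levels of the roles differed. The median was 97.5 CPM per kilobase for the U2AF genes, 78.3 for the Sm ring, 62.3 for the U1 and U2 proteins and 53.4 for SF3B. It was 45.8 for the LSm2 to LSm8 ring, 32.9 for SF3A, 21.5 for the other LSm genes and 16.9 for the PRPF genes. These are levels over all 6 tumors, not differences between treatments.

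As classes, the Sm/LSm genes had lower fold changes than the SF3/PRPF genes. The median log2 fold change was -0.10 over the 20 tested Sm/LSm genes (3 positive, 17 negative) and -0.02 over the 22 SF3/PRPF genes (9 positive, 13 negative), beside -0.07 over all 49 members and 0.004 over all genes tested. Without TMM the medians were -0.03 and 0.05, so that of the SF3/PRPF class changed sign, and their difference was -0.09 either way. The median over all genes was 0.08 without TMM, so both class medians stayed below it. Sign changes without TMM given above stand beside that higher median. The classes are not a clean split by size: proteins of the Sm/LSm class ran from 76 to 462 residues and those of the SF3/PRPF class from 86 to 2335 by their coding length in GENCODE. The summed Sm/LSm level was 1435, 1488 and 1459 CPM in the NaCl tumors and 1424, 1275 and 1167 CPM in the H89 tumors. H89 tumor 1 was just below the NaCl range and the other 2 H89 tumors well below it. The summed SF3/PRPF level was 2564, 2529.5 and 2474 CPM against 2568, 2494 and 2488 CPM, with the groups overlapping.

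The mean log2(CPM + 0.5) of the Sm/LSm class minus that of the SF3/PRPF class was -0.73, -0.66 and -0.64 with NaCl and -0.75, -0.84 and -0.91 with H89. The group means were -0.68 ± 0.05 and -0.84 ± 0.08 (SD, n = 3), a difference of -0.16, and the groups were apart by the step between the first tumor of each. Since the members were chosen with results known, no p is given for it. Positions against the NaCl range differed between the H89 tumors. In H89 tumor 1, 6 of 20 Sm/LSm genes lay below the NaCl range and 6 above. In H89 tumor 2 it was 11 below and 0 above, and in H89 tumor 3 15 below and 0 above. For the SF3/PRPF class, 6, 6 and 10 of 22 genes lay below the NaCl range in H89 tumors 1, 2 and 3, and 9, 6 and 5 above it. Shares over all genes are not given beside these counts. Whether the tumors differ in this way only in the members thus cannot be told. Without H89 tumor 1, the Sm/LSm median was -0.22 and the members lower at an unadjusted p under 0.05 were 15 (30.6%, against 13.9% of all genes in that fit). That count was 5 (10.2%) without NaCl tumor 1, without H89 tumor 2 or without H89 tumor 3, against 9.57%, 7.89% and 9.41% of all genes. H89 tumor 1 is also the tumor with the skeletal muscle markers.

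**Figure D3:**
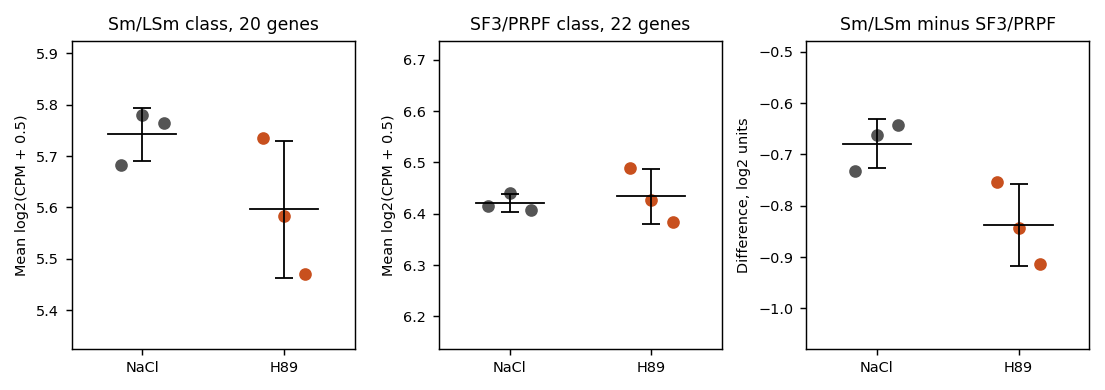
Mean log2(CPM + 0.5) of the Sm/LSm class (left) and the SF3/PRPF class (middle) and the first minus the second (right), in each NaCl and H89 tumor, with group means as long lines and SD as bars (n = 3). Each class overlaps between groups, while the difference does not, and the y axes span ranges of equal size that do not start at 0.

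The classes also differ in transcript length, with which fold changes moved over the whole table. The median log2 fold change of all genes in 5 equal bins of transcript length was -0.10, -0.03, 0.003, 0.04 and 0.09 from the shortest to the longest. Medians of the members in the same bins were -0.14 (20 genes), -0.14 (7), -0.07 (10), -0.03 (5) and 0.03 (7). Spearman's rho of fold change with length was 0.33 over the 49 members and 0.20 over 12920 genes with a length, each a description over genes of the same 6 libraries. The part of length in the class difference was not tested. After a correction of each tumor for length, the difference of class medians was -0.09, as it was before. With that correction the LSm2 to LSm8 median moved from -0.10 to -0.02 and the Sm ring median from -0.10 to -0.11. The number of Sm ring genes with positive fold changes moved from 0 to 3.

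**Figure D4:**
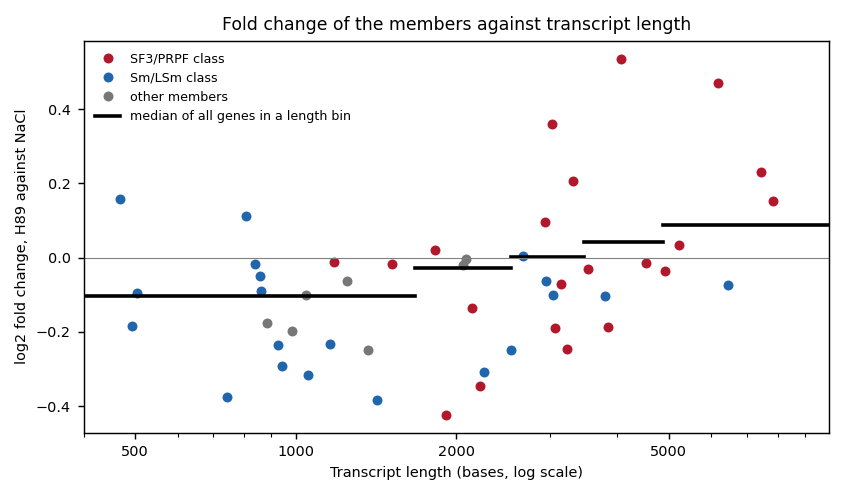
Log2 fold change of H89 against NaCl (y axis) against transcript length in bases (x axis, log scale) for 48 of the 49 members tested, with black lines for the median of all genes in each of 5 bins of length. The lines climb from -0.10 to 0.09, many Sm/LSm genes sit at the short end below 0, and Prpf39 and Sf3b1 lie far above the lines at their lengths.

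Other proteins of the spliceosome that the symbol rule leaves out were tested too. At an unadjusted edgeR p under 0.05, 6 of these 58 were higher and 9 lower, beside 13.1% and 11.9% of all genes. None passed the adjusted edgeR test, and the median log2 fold change was -0.08. Without TMM that median was -0.01, with 9 higher and 3 lower, beside 17.5% and 6.9% of all genes. Groups were apart for 7 of the 58 in the higher and 15 in the lower direction, beside 15.2% and 15.5% of all genes. The 3 with the smallest p, all higher, were the LUC7-like genes, whose products bind U1 at the 5′ splice site: Luc7l at 0.33 (SE 0.076), Luc7l2 at 0.38 (SE 0.096) and Luc7l3 at 0.41 (SE 0.11). SR proteins, the splicing regulators that bind exon enhancers, were higher at an unadjusted p under 0.05 in 5 of 10 and lower in 0, with a median of 0.21, and the number higher ran from 1 to 6 with each tumor left out. Srsf5 rose, from 143, 145 and 147 CPM to 229, 241 and 221 CPM, with a log2 fold change of 0.67 (SE 0.077, edgeR adjusted p 0.0338), a call that was lost without any 1 of the 6 tumors (edgeR adjusted p 0.0552 to 0.130). Cytosolic ribosomal proteins, another set of mostly small proteins, were lower at an unadjusted p under 0.05 in 59 of 75 with 0 higher. At an adjusted p under 0.05, 8 fell. The number passing was 56 with DESeq2, 16 without a filter, 13 with median ratio factors, 9 with limma and 7 with a filter of 5 CPM. It was 2 without TMM or with the length correction, and 0 with quantile normalization. With any 1 tumor left out or with the replicate block it was 0, in fits that called 0 to 12 genes in all. The median log2 fold change of these ribosomal genes was -0.39, against -0.10 for the Sm/LSm class. The differences between these lists were not tested.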

How the data were processed

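The authors extracted total RNA from 6 tumors, sequenced it on the BGISEQ-500 and deposited 1 table of estimated counts per gene, read as such because the totals of the tumors differ and reach 27067349 to 31958793, although the table is called TPM. The submitters' processing notes name kallisto, DESeq2 and GRCm38. Strand and annotation are not given in the sources used here. The estimated counts were rounded and tested with edgeR 4.0.16 (R 4.3.3; glmQLFit, glmQLFTest, TMM, mean of at least 0.5 CPM, treatment as the only term, Benjamini-Hochberg adjustment over 13118 genes), after a check on simulated data. Each SE was derived from the fitted log2 fold change and its quasi-likelihood F (|change| over √F). Alternatives used DESeq2 1.42.0 and limma 3.58.1, other scalings and filters, a length correction, a replicate block and each tumor left out. Lengths, positions and overlaps are from GENCODE M21 (GRCm38) by symbol, and promoters from RefSeq (GRCm38.p6).

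Groups came from the labels. The members, the lists and the classes were chosen with earlier results of these data known. Tumor values are given for members past the adjusted test, for the 12 with the smallest p and for a set list by role, and from other lists only genes among the 3 smallest p are named. Counts and medians cover every tested member, but 1 member is not reported singly here. Fkbp3 and Psenen are named for their exon overlap. Values of tumors carry counting error and animal spread together. An exact permutation test of 3 against 3 tumors cannot go below 0.1 and was not used for calls. Some counts are shared between transcripts of related genes by estimation, which can split values of near-identical copies.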

Additional observations from a re-analysis of the deposited data

How the results depend on the processing

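No member past the test changed direction under any alternative, while 0 to 12 of the others changed sign. DESeq2 called 7 members at an adjusted p under 0.05 in place of 2, adding Prpf38b, Lsm3, Sf3b2, Sf3b4 and Snrpd2, while its calls over all genes were 1392 of 18837 against 208 of 13118 in edgeR. Library totals without TMM, chosen after seeing the data, left 1 call (Sf3b1 missed at 0.0512) and 5 members lower in place of 9, moved the SF3/PRPF median from -0.02 to 0.053, and changed the sign of 12 members. The median over all genes moved from 0.004 to 0.0757 as well, and the share of all genes lower from 11.9% to 6.9%. Limma, median ratio factors, quantile normalization, both filters and the length correction each kept 2 calls. The SF3/PRPF median was 0.015 with the filter of 5 CPM and 0.011 with quantile normalization, so its sign changed there too. The difference of class medians was -0.087 and -0.122 in these 2 settings. Signs changed in 6 members with the filter of 5 CPM, 8 with quantile normalization and 9 with the length correction. With each tumor left out in turn, 0 members were called, 5 to 15 were lower and 3 to 5 higher at an unadjusted p under 0.05, the Sm/LSm median ran from -0.216 to -0.0756, the SF3/PRPF median from -0.03 to 0.01 and the difference of class medians from -0.191 to -0.0728. With the replicate number as a block, 0 members and 0 of all 13118 genes were called (Prpf39 and Sf3b1 both at an edgeR adjusted p of 0.064). In the block fit 13 members were lower at an unadjusted edgeR p under 0.05 (26.5%, against 14.6% of all genes). There 5 members were higher, against 14% of all genes. The pairing check gave correlations of 0.163, 0.0614 and -0.0251 for same-numbered tumors, and from -0.373 to 0.35 for the other pairs. So few values cannot tell whether same-numbered tumors share more than a number. The causes were not tested. With classes cut at 200 residues in place of family, the difference of medians was -0.05. Precision is limited by 3 tumors per group: the SE of a member's log2 fold change ran from 0.072 to 0.17.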

Other observations

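Genes that build and import the particles were measured beside the core proteins. Of 25 listed assembly and import genes, 2 were higher and 5 lower at an unadjusted edgeR p under 0.05, beside 13.1% and 11.9% of all genes. None of the 25 passed the adjusted edgeR test, and their median log2 fold change was -0.10 (-0.03 without TMM). Smn1, the survival motor neuron gene, whose product loads Sm rings onto small nuclear RNA, had 38.2, 39.7 and 38.0 CPM with NaCl and 31.0, 29.9 and 27.2 CPM with H89 (log2 fold change -0.39, SE 0.087, edgeR adjusted p 0.0635). Clns1a, a chaperone that holds Sm proteins before loading, had 67.0, 73.9 and 72.6 CPM against 61.5, 59.0 and 58.0 CPM (log2 fold change -0.26, SE 0.077, edgeR adjusted p 0.105). Tgs1, which matures the cap of small nuclear RNA, was higher, with 26.5, 30.8 and 29.4 CPM against 42.0, 38.5 and 34.8 CPM (log2 fold change 0.41, SE 0.10, edgeR adjusted p 0.0807). In these 3 genes the groups were apart.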
